A study of Homo sapiens with 4 samples.

Results

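The 97 neurotransmitter receptor genes of the annotation used for the deposited table were followed in SK-N-SH cells, a human neuroblastoma line, with and without overexpression of the long noncoding RNA RP5-998N21.4. Members were chosen by gene symbol alone, as the subunits and receptors for GABA, glutamate, acetylcholine, serotonin, dopamine and adrenaline or noradrenaline, and they made up 97 of the 57820 genes in the table, or 570 of its 196520 transcripts. No expression value entered this symbol rule, although the gene set was proposed with earlier results of these data known.

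Neurotransmitter receptors fall into 2 structural classes. Ligand-gated ion channels are assemblies of several subunits and open within milliseconds of transmitter binding, and the subunits present set the ion selectivity and kinetics of the channel. G protein-coupled receptors act through Gs, Gi/o or Gq proteins to raise or lower cyclic AMP or to release calcium from internal stores. Neuroblastoma arises from the sympathoadrenal lineage of the neural crest, whose ganglion cells carry fast cholinergic transmission on nicotinic receptors built from the CHRNA3 and CHRNB4 subunits.

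RNA sequencing compared 2 libraries of SK-N-SH cells transduced with lentivirus for RP5-998N21.4 (OE, overexpression) with 2 libraries of cells that received the empty lentiviral vector (vector control). The titles of the vector control samples call them wild type, whereas their treatment label names the empty vector. According to the methods of the study, the insert was driven by an EF1a promoter, and both groups therefore share the viral backbone and the transduction. The labels do not say whether the 2 libraries of a group came from separate cultures, so the p-values measure the spread between these libraries, which may be technical. The comparison asks which transcripts differ in level when RP5-998N21.4 is raised.

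Library totals were 23785164 and 24098041 counts for the control and 24601728 and 28307591 for OE, and mitochondrial genes took 6.01% to 6.5% of them. RP5-998N21.4 itself had 32 and 33 control counts against 2407 and 2808 in OE, in the direction of the labels. A count of 0 in a library of this depth allows up to 3 counts, or 0.106 to 0.126 CPM, the unit of counts scaled to library size, and this limit covers counting error only. All levels below are CPM after TMM scaling, given as mean ± SD over 2 libraries, and all log2 fold changes are RP5-998N21.4 OE over vector control.

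Of the 97 receptor genes, 69 had at least 1 count, 28 were at 0 in all 4 libraries, and 37 reached a mean of 1 CPM. The filter on low counts left 49 for testing, of which 37 would have passed it on the counts of either group, 6 passed because both OE libraries cleared it, 3 because both vector control libraries did and 3 through 1 library of each group. A gene that is high in 1 group only can be tested because of that group, so the counts below describe the 49 tested genes and not all 97. The 20 receptor genes that had counts but were not tested had at most 16 counts in any library.

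No receptor gene passed the thresholds of the study (adjusted p under 0.01 and a log2 fold change beyond 0.5 in either direction) in edgeR's quasi-likelihood test, and neither did any other of the 20528 genes tested (0.0%). With an unadjusted p under 0.05, 14 of the 49 receptor genes were higher in OE, beside 10.1% of all genes tested, and 3 were lower, beside 10.7%. Among the 37 that passed the filter on each group's counts alone, 11 were higher and 1 was lower. DESeq2's Wald test at the same thresholds called 12 receptor genes higher, beside 4.35% of all genes, and 1 lower, beside 4.42%, whereas limma-voom called none. Among the same 37, DESeq2 called 10 higher and 0 lower. The OE libraries were both higher than either control library for 24 receptor genes, beside 27.8% of all genes, and both lower for 8, beside 27.6%. Among the 37, these counts were 19 and 5. The median log2 fold change of the tested receptor genes was 0.39, also with CHRM4, which had no count in the vector control, set to its lower bound, and that of all tested genes was 0.01. Without OE replicate 2 the median of the receptor genes was 0.20. In a design of 2 against 2 libraries an exact permutation test of a single gene cannot give a p below 0.333. In bulk RNA, fewer cells of a type and less RNA per cell cannot be told apart.

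**Figure D1:**
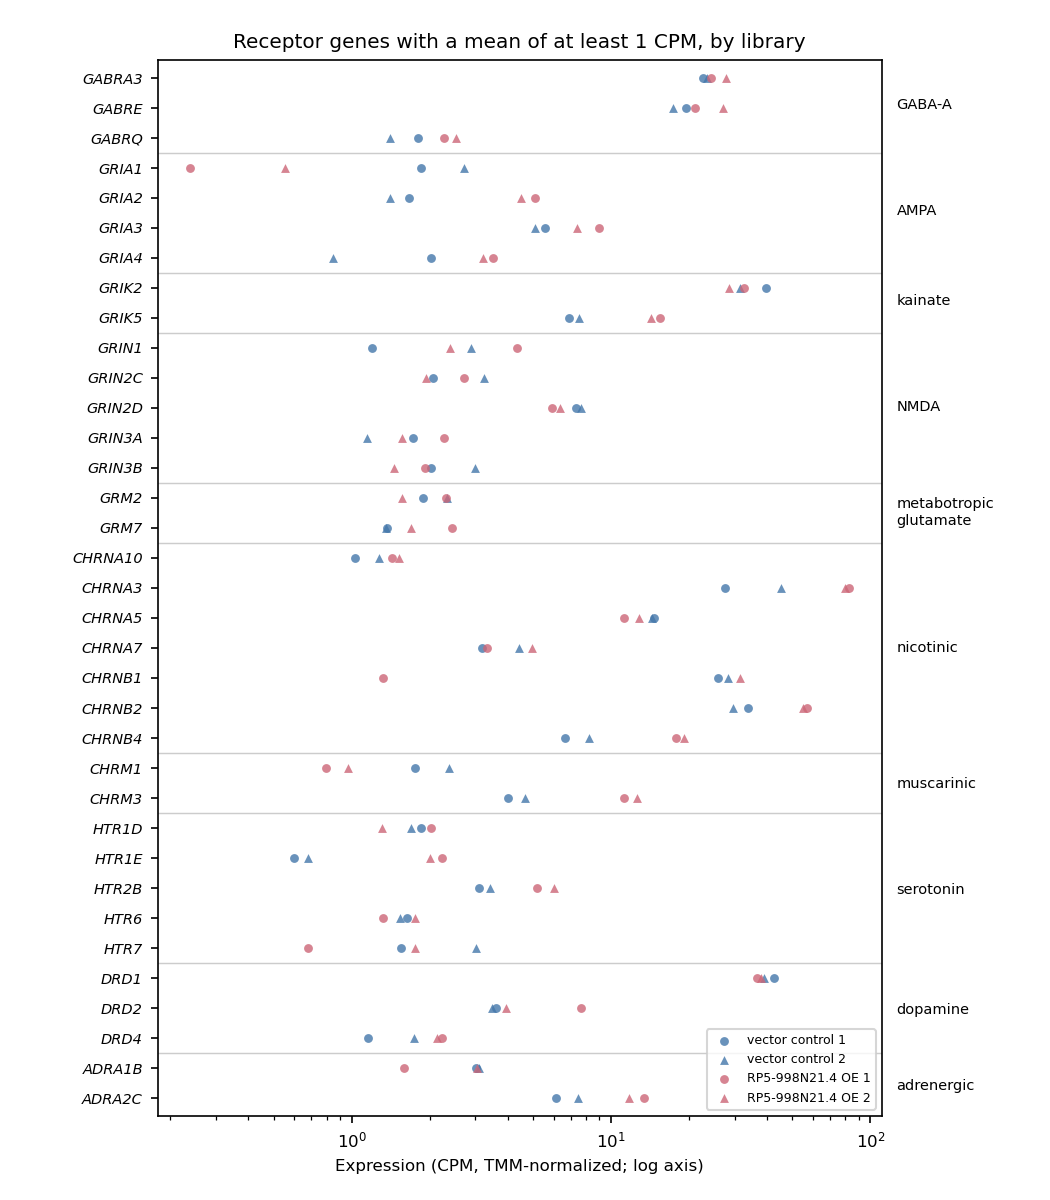
Expression (x axis, CPM on a log scale) of 35 of the 37 receptor genes that averaged 1 CPM or more in each library, grouped by receptor family. Blue marks are vector control and red marks RP5-998N21.4 OE libraries, circles replicate 1 and triangles replicate 2; CHRNA3 reached 82.7 CPM and GRIA1 was at 0.239 CPM in OE replicate 1.

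The nicotinic acetylcholine receptors, pentameric cation channels, were the most abundant family, summing to 114 and 132 CPM in the controls and to 175 and 206 CPM in OE. Of 16 subunit genes, 14 had counts and 9 were tested, with 3 higher and none lower in OE at an unadjusted p under 0.05. The 3 were CHRNA3, CHRNB4 and CHRNB2, and DESeq2 called the same 3. Their known partner CHRNA5 was not among them.

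CHRNA3, CHRNA5 and CHRNB4 lie side by side on chromosome 15 in GRCh37. CHRNA5 (ENSG00000169684.9, chr15:78857862-78887611, plus strand) ends on the opposite strand to CHRNA3 (ENSG00000080644.11, chr15:78885394-78913637, minus strand), and CHRNB4 (ENSG00000117971.7, chr15:78916453-79020096, minus strand) follows. CHRNB2 (ENSG00000160716.4, chr1:154540254-154552489, plus strand) encodes the main beta subunit of brain nicotinic receptors. To show what precedes the 3 subunit genes that were higher, the 250 bases upstream of their RefSeq starts (GRCh38.p14) are printed here, 5′ to 3′ on the strand of the gene, with capitals for matches on either strand to the GC box GGGCGG and the E-box CAGCTG.
CHRNA3, chr15:78620997-78621246, minus strand: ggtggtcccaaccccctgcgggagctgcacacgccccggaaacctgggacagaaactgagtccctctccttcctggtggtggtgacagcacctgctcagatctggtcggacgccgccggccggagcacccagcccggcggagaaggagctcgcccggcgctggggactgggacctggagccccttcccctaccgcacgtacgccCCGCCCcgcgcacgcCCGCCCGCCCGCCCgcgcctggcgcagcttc
CHRNB4, chr15:78641211-78641460, minus strand: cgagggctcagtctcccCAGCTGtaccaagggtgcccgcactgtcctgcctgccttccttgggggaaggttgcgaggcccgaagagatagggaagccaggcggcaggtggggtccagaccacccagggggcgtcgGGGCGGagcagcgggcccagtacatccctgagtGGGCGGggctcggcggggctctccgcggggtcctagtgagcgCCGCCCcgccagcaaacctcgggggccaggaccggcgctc
CHRNB2, chr1:154567528-154567777, plus strand: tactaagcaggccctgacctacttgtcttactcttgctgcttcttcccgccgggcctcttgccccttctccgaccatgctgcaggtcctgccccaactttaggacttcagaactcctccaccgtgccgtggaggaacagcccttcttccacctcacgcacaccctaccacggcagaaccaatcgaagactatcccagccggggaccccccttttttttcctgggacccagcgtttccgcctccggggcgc

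The CHRNA3 window held 4 matches to the GC box, some of them overlapping, and none to CAGCTG. The CHRNB4 window held 3 and 1, and the CHRNB2 window neither. GGGCGG was found in 42.6% and CAGCTG in 14% of 35116 RefSeq windows of this length, and in 46.9% and 15.3% of the 98 windows of receptor genes, which cover 72 of the 97. The interferon-stimulated response element core (3.0% of all windows) and the cAMP response element TGACGTCA (1.6%) had no match in the 3 windows. GC content was 73.6%, 72.4% and 60.4% for CHRNA3, CHRNB4 and CHRNB2.

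CHRNB4, which pairs with CHRNA3 in ganglionic receptors, had 155 and 193 control counts against 447 and 552 in OE, or 7.44 ± 1.10 and 18.4 ± 0.898 CPM. Both OE libraries were above both controls, with a log2 fold change of 1.31 ± 0.165 (SE; edgeR adjusted p = 0.0768). CHRNB2 had 786 and 691 control counts against 1422 and 1583 in OE, again with no overlap. Its level was 31.6 ± 3.07 against 55.7 ± 1.37 CPM, and its log2 fold change was 0.82 ± 0.114 (SE; edgeR adjusted p = 0.082). The 5857 nt of its 1 counted transcript overlap an antisense gene by 321 nt, and whether the counting used strand is not given in the sources used here.

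CHRNA3 had 639 and 1063 control counts against 2075 and 2315 in OE. The vector control libraries stood far apart from each other, at 36.3 ± 12.6 CPM against 81.4 ± 1.88 CPM in OE. The log2 fold change of 1.16 ± 0.278 (SE; edgeR adjusted p = 0.15) became 0.84 when vector control replicate 1 was left out and 1.56 when replicate 2 was. CHRNA5, an accessory subunit of the same receptors, had 342 and 338 control counts against 281 and 370 in OE, at 14.5 ± 0.214 and 12 ± 1.13 CPM. Its log2 fold change was -0.28 ± 0.134 (SE; edgeR adjusted p = 0.344). Of the counts of these 3 neighbours, CHRNA5 took 25.7% ± 6.29 in the vector control and 10.7% ± 0.994 in OE, whereas CHRNB4 took 12.9% ± 1.09 and 16.5% ± 0.782. These shares were not scaled to transcript length. The exons of the counted CHRNA3 and CHRNA5 transcripts overlap on opposite strands, by 100 of the 4216 exonic nt of CHRNA3, and 1030 of the 3623 exonic nt of CHRNA5 overlap CHRNA3 or a further gene, ENSG00000261762.

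The remaining nicotinic subunits did not pass the unadjusted test. CHRNB1, the beta subunit of muscle, had 601 and 664 control counts but 33 and 912 in OE, so its log2 fold change of -0.72 ± 1.42 (SE) described neither OE library. Without OE replicate 1 it was 0.22, and without OE replicate 2 it was -4.36. The gap lay in 1 transcript, ENST00000306071.2, which had 548, 572, 1 and 855 counts, while the retained-intron transcript ENST00000573209.1 kept 53, 92, 32 and 57. CHRNA7, which forms homomeric channels, had 74, 104, 83 and 143 counts, and its partial copy CHRFAM7A, which can share its reads, had 16, 28, 18 and 37. CHRNA10 was at 1.15 ± 0.174 and 1.48 ± 0.0612 CPM. CHRNA4, the usual partner of CHRNB2 in brain, was at 0 in all 4 libraries, as was CHRNB3.

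**Figure D2:**
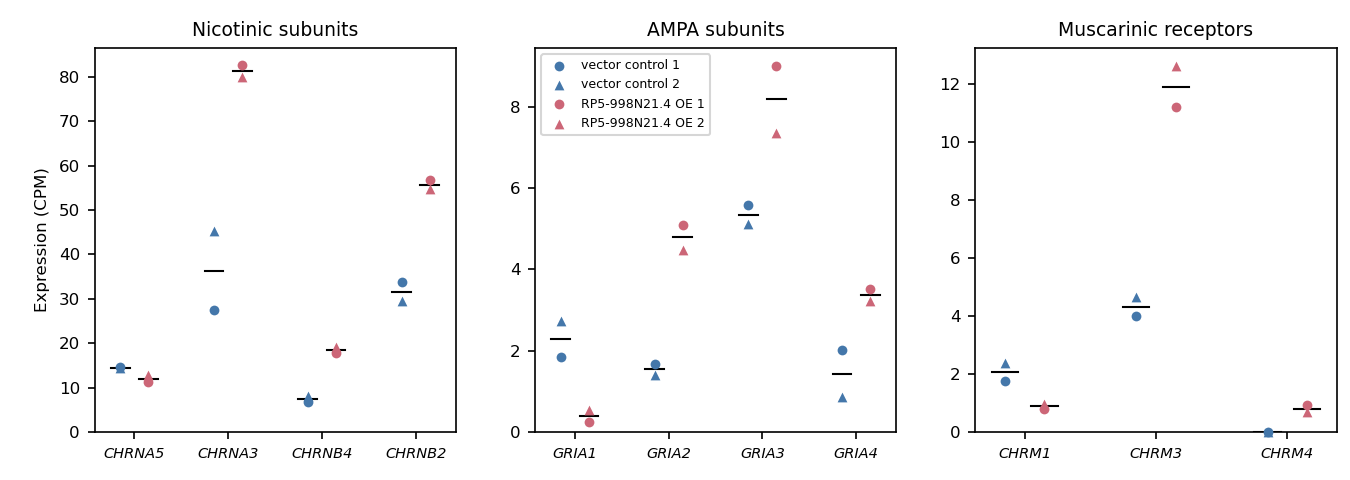
Expression in CPM (y axes start at 0) of 4 nicotinic subunits, the 4 AMPA subunits and 3 muscarinic receptors in each library, with black bars for group means. CHRNA3, CHRNB4, CHRNB2, GRIA2, GRIA3, GRIA4, CHRM3 and CHRM4 were higher in both OE libraries than in both controls, whereas CHRNA5, GRIA1 and CHRM1 were lower in both.

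Of the 5 muscarinic receptors, which are the G protein-coupled receptors for acetylcholine, 4 were tested, with 2 higher and 1 lower. CHRM3 (ENSG00000133019.7, chr1:239549865-240078752, plus strand), the Gq-coupled receptor of smooth muscle and glands, had 93 and 109 control counts against 280 and 364 in OE. Its level was 4.32 ± 0.456 against 11.9 ± 1.01 CPM, a log2 fold change of 1.46 ± 0.167 (SE; edgeR adjusted p = 0.0707), the smallest edgeR p among the receptor genes. The log2 fold change lay between 1.35 and 1.57 when any 1 library was left out. CHRM4, a Gi/o-coupled receptor, had no count in either vector control library and 23 and 20 counts in OE. Against 3 counts per control library it was at least 6.27-fold higher (edgeR adjusted p = 0.113), and it passed the filter only through the OE libraries.

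CHRM1, Gq-coupled as CHRM3 is, went the other way, with 41 and 56 control counts against 20 and 28 in OE. Its log2 fold change was -1.22 ± 0.304 (SE; edgeR adjusted p = 0.156), and DESeq2 did not call it. Of the counts of CHRM1 and CHRM3, not scaled to transcript length, CHRM1 took 32.3% ± 2.36 in the vector control and 6.9% ± 0.337 in OE. Per kb of counted transcript, CHRM1 was at 0.783 ± 0.166 CPM and CHRM3 at 0.543 ± 0.0574 in the vector control. In OE they were at 0.334 ± 0.0457 and 1.49 ± 0.127. CHRM5 had 17, 0, 6 and 21 counts and overlaps the exons of AVEN by 853 of 5802 nt, so its direction could not be read.

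Glutamate receptors comprised 24 members, of which 17 were tested, 4 were higher and 1 was lower. The AMPA receptors, which carry most fast excitatory transmission in the brain, had all 4 subunit genes tested, with 2 higher and 1 lower. GRIA2 (ENSG00000120251.14, chr4:158125334-158308298, plus strand), whose edited form makes the channel nearly impermeable to calcium, had 39 and 33 control counts against 128 and 130 in OE. It was at 1.54 ± 0.191 against 4.80 ± 0.429 CPM, with a log2 fold change of 1.64 ± 0.21 (SE; edgeR adjusted p = 0.0779). GRIA1 (ENSG00000155511.13, chr5:152869175-153193429, plus strand) had 43 and 64 control counts against 6 and 16 in OE. Its log2 fold change was -2.50 ± 0.519 (SE; edgeR adjusted p = 0.128), and it was the receptor gene that DESeq2 called lower. It passed the filter only through the vector control libraries, and its log2 fold change was -2.04 when OE replicate 1 was left out and -3.23 when OE replicate 2 was.

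GRIA3 had 130 and 120 counts against 226 and 213, at a log2 fold change of 0.61 ± 0.18 (SE; edgeR adjusted p = 0.194), and DESeq2 did not call it. GRIA4 had 47 and 20 counts against 88 and 93, a log2 fold change of 1.23 ± 0.472 (SE; edgeR adjusted p = 0.267) that was 1.97 when vector control replicate 1 was left out and 0.73 when replicate 2 was. Within the summed AMPA counts, GRIA1 took 21.8% ± 7.36 in the vector control and 2.44% ± 1.56 in OE, and GRIA2 took 14.5% ± 0.802 and 28.7% ± 0.134. GRIA3 stayed the largest at 50.4% ± 0.311 and 48.8% ± 2.35. The shares were not scaled to transcript length. The summed level of the 4 subunit genes was 11.1 and 10.1 CPM in the vector control and 17.9 and 15.6 CPM in OE.

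Among the kainate receptors, GRIK5 (ENSG00000105737.5, chr19:42502473-42574358, minus strand), a high-affinity subunit that needs a partner such as GRIK2, had 160 and 176 control counts against 388 and 414 in OE. Its log2 fold change was 1.05 ± 0.135 (SE; edgeR adjusted p = 0.0779), with 7.18 ± 0.438 against 14.9 ± 0.813 CPM. GRIK2, with 925, 735, 816 and 824 counts, overlapped between the groups (log2 fold change -0.22 ± 0.169, SE; edgeR adjusted p = 0.527). GRIK3 had 17, 4, 30 and 40 counts and did not pass the test. GRIK1 and GRIK4 had too few counts to be tested.

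None of the 5 NMDA receptor subunits tested passed the unadjusted test in either direction, and their median log2 fold change was -0.19. The obligate subunit GRIN1 had 28, 68, 109 and 69 counts, with the groups overlapping. GRIN2D, with 171, 180, 149 and 184 counts, was at 7.50 ± 0.224 against 6.15 ± 0.299 CPM (log2 fold change -0.29 ± 0.142, SE; edgeR adjusted p = 0.354). GRIN2A and GRIN2B, the main glutamate-binding subunits of forebrain, were at 0 in all libraries, and GRIN2C, GRIN3A and GRIN3B lay between 1.15 and 3.23 CPM in every library.

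Of the 8 metabotropic glutamate receptors, 5 were tested and 1 was higher. GRM8, a Gi/o-coupled autoreceptor of nerve terminals, had 4 and 8 control counts against 39 and 37 in OE. Its log2 fold change was 2.44 ± 0.465 (SE; edgeR adjusted p = 0.115), and it passed the filter only through the OE libraries. GRM7 had 32 and 32 counts against 61 and 49 (edgeR adjusted p = 0.352). GRM2 had 44, 55, 58 and 45 counts, of which 98.0% lay on a retained-intron transcript, ENST00000464585.1.

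The GABA-A receptors, pentameric chloride channels, had 19 members, of which 8 had counts, 5 were tested and 1 was higher, with a median log2 fold change of 0.39. Their summed level was 56.8 and 56.0 CPM in the controls and 70.2 and 83.5 CPM in OE. GABRA3, the one alpha subunit with a mean above 1 CPM, had 526, 552, 608 and 803 counts, a log2 fold change of 0.17 ± 0.121 (SE; edgeR adjusted p = 0.485). GABRE had 451, 409, 528 and 781 counts, of which 50.5% lay on a transcript not listed in GENCODE 44 and 40.4% on a retained-intron transcript. GABRQ had 42, 33, 57 and 73 counts. The 3 genes were higher in both OE libraries than in both controls and did not pass the unadjusted test. The rho subunits GABRR1 and GABRR3 and the pi subunit GABRP were at 0 in all libraries.

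Both GABA-B receptor genes, which encode an obligate pair of G protein-coupled subunits, were listed at 0. For GABBR1 (ENSG00000204681.6, chr6:29523406-29601753, minus strand) this 0 cannot be read as a level. In the stretch of chromosome 6 with gene starts from 28538312 to 33387438 (GRCh37), which holds the major histocompatibility complex, 163 of 175 protein-coding genes were at 0 in all libraries (93.1%), against 141 of 813 on the rest of the chromosome (17.3%). RPS18, TUBB, FLOT1, CSNK2B and BAG6, genes that most cells use, were among them. Within 1000000 nt of GABBR1, 39 of 42 coding genes were at 0, against 1 of 20 around GABBR2, whose 0 allows up to 3 counts per library.

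**Figure D3:**
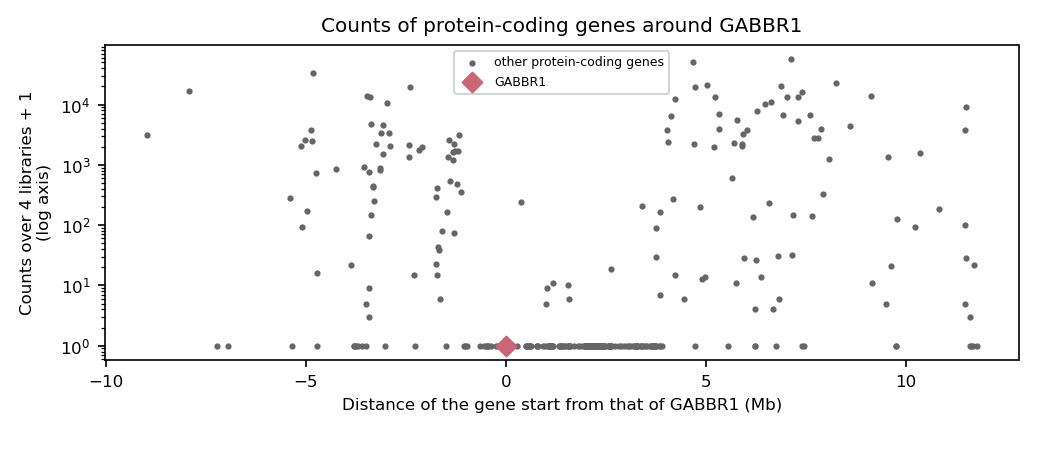
Counts summed over the 4 libraries plus 1 (y axis, log scale) of protein-coding genes around GABBR1, by distance of the gene start in Mb. Most genes near GABBR1 and to its right are at 0, as GABBR1 itself is, whereas well counted genes lie on both sides of the stretch.

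The serotonin receptors had 17 members, of which 11 had counts and 6 were tested, with 2 higher and 1 lower. HTR1E, a Gi/o-coupled receptor, had 14 and 16 control counts against 56 and 58 in OE, at a log2 fold change of 1.72 ± 0.263 (SE; edgeR adjusted p = 0.0931). HTR2B, which couples to Gq, had 72 and 80 counts against 130 and 174, at 0.78 ± 0.181 (SE; edgeR adjusted p = 0.145). Of the 2170 nt of its transcript, 559 overlap exons of PSMD1 on the other strand.

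HTR1B, a Gi/o-coupled autoreceptor, was lower, with 20 and 17 control counts against 4 and 0 in OE (edgeR adjusted p = 0.232). It passed the filter only through the vector control libraries, and DESeq2 did not call it. The Gs-coupled HTR6 and HTR7 and the Gi/o-coupled HTR1D overlapped between the groups, and HTR7 ranged from 17 to 71 counts within them. The HTR7 copy HTR7P1, which can share its reads, had 373, 349, 419 and 492 counts. HTR3A and HTR3B, which are among the subunits of the ion channel for serotonin, were at 0, as was HTR1A.

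DRD1, a Gs-coupled dopamine receptor, was among the most abundant receptor transcripts, with 993 and 914 control counts against 918 and 1094 in OE (log2 fold change -0.13 ± 0.0998, SE; edgeR adjusted p = 0.518). DRD2, Gi/o-coupled, had 84 and 82 counts against 192 and 114, and OE replicate 2 lay close to the controls. All 114 counts of DRD2 in that library were on ENST00000355319.2, which had 0 in the other 3 libraries. DRD4 had 27 and 41 counts against 56 and 62 (log2 fold change 0.59 ± 0.297, SE; edgeR adjusted p = 0.36). DRD3 and DRD5 were at 0, and so were 23 of the 27 coding genes within 1000000 nt of DRD5.

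Of the 9 adrenergic receptors, 5 were tested and 2 were higher, both of them alpha-2 receptors, which couple to Gi/o and restrain noradrenaline release from sympathetic cells. ADRA2C had 143 and 175 control counts against 336 and 337 in OE, at 6.79 ± 0.924 against 12.5 ± 1.23 CPM. Its log2 fold change was 0.88 ± 0.177 (SE; edgeR adjusted p = 0.121). ADRA2A had 9 and 4 counts against 32 and 24, at 1.90 ± 0.575 (SE; edgeR adjusted p = 0.202), and passed the filter only through the OE libraries. Leaving out vector control replicate 1 gave 2.59. ADRA1B, with 70, 73, 40 and 88 counts, overlapped between the groups.

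**Figure D4:**
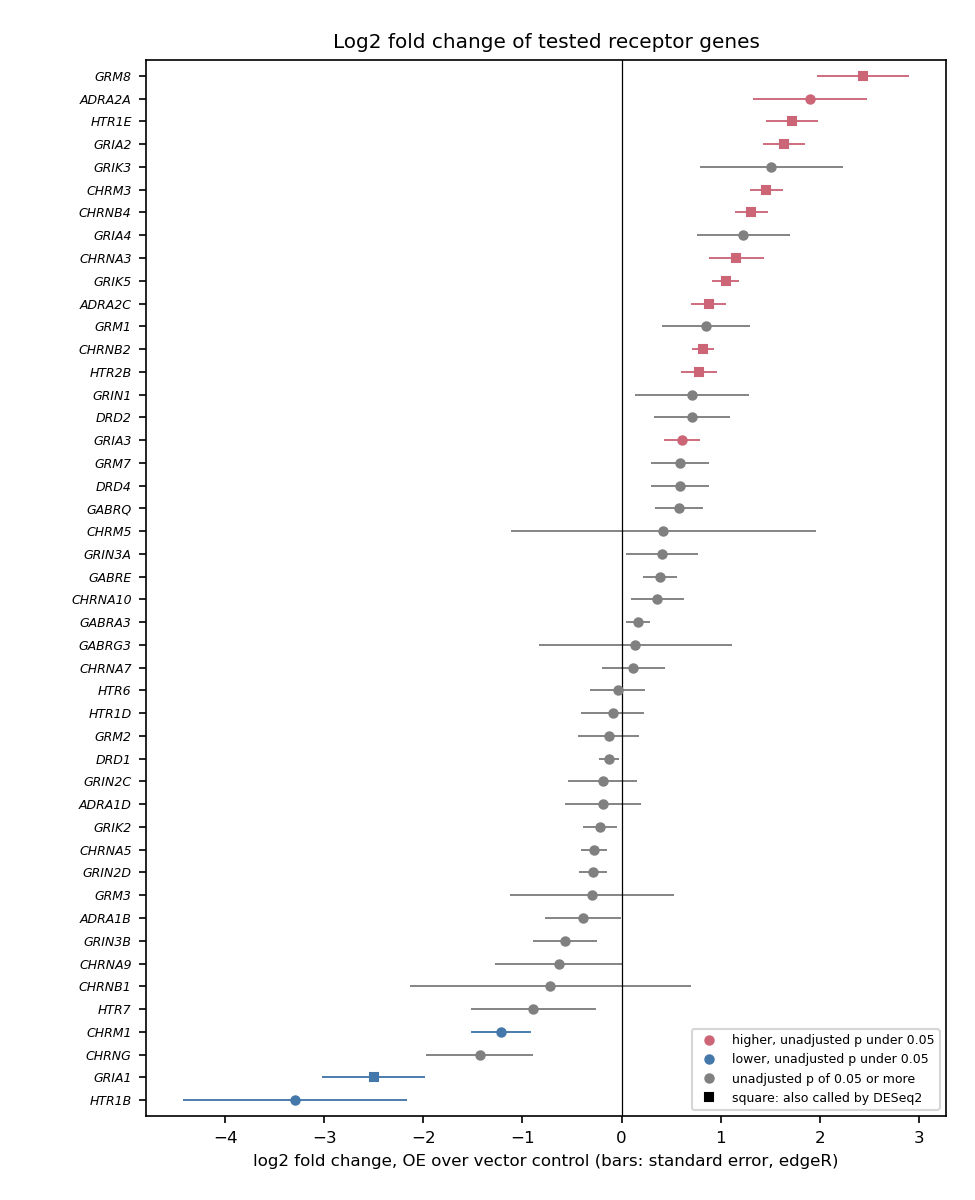
Log2 fold change, RP5-998N21.4 OE over vector control, of 46 of the 49 tested receptor genes, CHRM4 not among them, with standard errors from edgeR. Red marks are higher and blue marks lower at an unadjusted p under 0.05, grey marks did not reach it, and squares were also called by DESeq2.

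Grouped by coupling, 12 Gi/o-coupled receptors were tested, of which 5 were higher and 1 was lower. Of these, CHRM4, GRM8 and ADRA2A passed the filter only through the OE libraries and HTR1B only through the vector control libraries. The 7 Gq-coupled receptors tested had 2 higher and 1 lower, and the 4 Gs-coupled receptors tested had none in either direction. Ion channel subunits had 7 higher and 1 lower of 26 tested, and G protein-coupled receptors 7 higher and 2 lower of 23. Beside these counts, 10.1% of all genes tested were higher and 10.7% lower at an unadjusted p under 0.05. The difference between coupling classes was not tested.

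Per length of the counted transcripts, CHRNA3 was highest of the 31 receptor genes that averaged 1 CPM or more and whose transcript length was known for at least 80% of counts, at 12.2 ± 4.23 CPM per kb in the vector control, followed by CHRNB1 at 10.6 ± 0.681, DRD1 at 10.1 ± 0.657 and GRIK2 at 7.23 ± 1.22. CHRNA3 and CHRNB1, and likewise CHRNB1 and DRD1, did not differ beyond the sum of their SDs, whereas DRD1 lay above GRIK2 by more than that. In OE the order began with CHRNA3 at 27.3 ± 0.632, CHRNB2 at 9.51 ± 0.235 and DRD1 at 9.23 ± 0.217 CPM per kb. CHRNB2 and DRD1 did not differ there beyond the sum of their SDs. CHRNB4 was at 2.89 ± 0.427 CPM per kb in the vector control, within the summed SDs of ADRA2C at 3.17 ± 0.432. In OE it was at 7.16 ± 0.348 CPM per kb, within those of GABRA3 at 7.09 ± 0.681.

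SK-N-SH cultures are known to hold both adrenergic, neuron-like and mesenchymal, substrate-adherent cells, so markers of both states were read beside the receptors. Of 12 adrenergic markers, 11 were tested, with 9 higher and none lower at an unadjusted p under 0.05, a median log2 fold change of 1.01 and summed levels of 656 and 719 CPM in the vector control and 1170 and 1120 CPM in OE. CHGA, a protein of catecholamine granules, had 1157 and 1141 counts against 3412 and 3512 (log2 fold change 1.39 ± 0.0985, SE; edgeR adjusted p = 0.0449). TH, the first enzyme of catecholamine synthesis, was listed at 0 in all libraries. Of 12 mesenchymal markers, 1 was higher and 5 were lower, with a median of -0.17 and summed levels from 3380 to 4340 CPM that overlapped between the groups. VIM had 8111, 8217, 31466 and 10869 counts, and the overlap rested on this gene in OE replicate 1. Without VIM, a choice made after seeing the data, the other 11 markers summed to 3450 and 3670 CPM in the vector control and to 3090 and 3010 CPM in OE, lower in both OE libraries, with a median of -0.20. The part of these markers in the receptor differences was not tested.

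**Figure D5:**
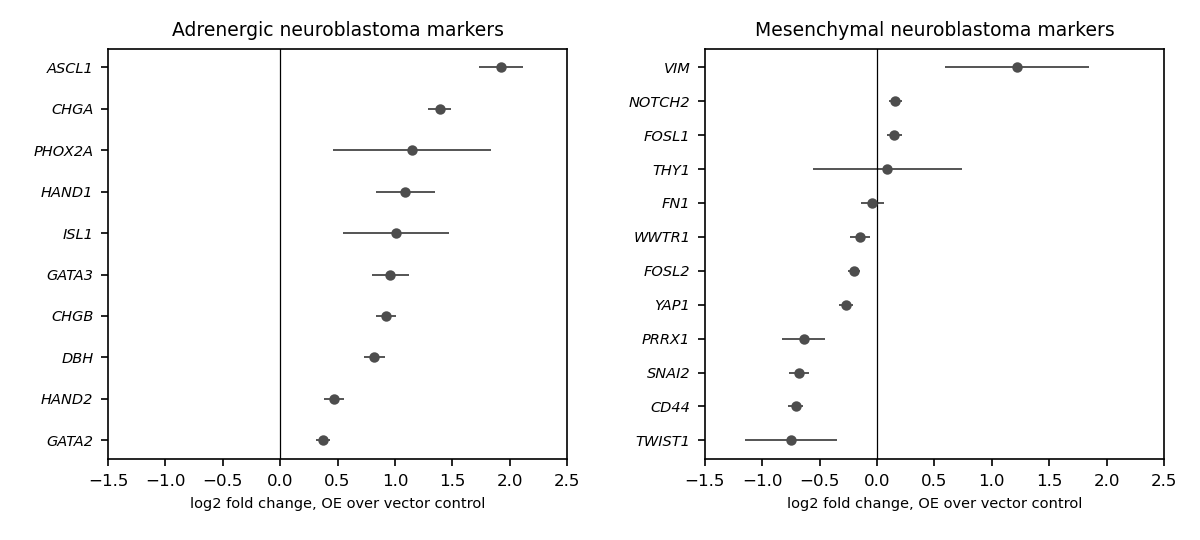
Log2 fold change, RP5-998N21.4 OE over vector control, with standard errors from edgeR, of 10 of the 11 adrenergic and of the 12 mesenchymal markers tested. The 10 adrenergic markers lie to the right of 0, and 8 of the 12 mesenchymal markers lie to the left of it.

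Markers of other cells were near 0. Endothelial CDH5 and hepatocyte ALB were at 0 in all libraries, the summed immune markers reached 0.138 CPM in 1 library, and the summed astrocyte, oligodendrocyte and epithelial markers stayed at or below 1.28 CPM. Of these, immune AIF1 and oligodendrocyte MOG lie in the stretch of chromosome 6 around GABBR1, and their 0 cannot be read as a level either. Markers of mature cortical neurons summed to 2.80 to 4.42 CPM.

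Lists of genes that work with the receptors showed differences in both directions, with no gene past the thresholds of the study in edgeR. Of 29 scaffold genes tested, 5 were higher and 2 lower (median log2 fold change -0.02). HOMER3, which links metabotropic glutamate receptors to internal calcium stores, had 634 and 774 control counts against 153 and 246 in OE, at -2.04 ± 0.234 (SE; edgeR adjusted p = 0.0707). SHANK1 and HOMER2 were higher, with 169 and 148 against 342 and 388 counts and with 384 and 382 against 607 and 662.

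Of 19 auxiliary subunits and chaperones tested, 4 were higher and 6 lower (median -0.27). The chaperones of nicotinic receptors went apart. RIC3 had 146 and 100 control counts against 388 and 470 in OE, at 1.59 ± 0.241 (SE; edgeR adjusted p = 0.0921), and TMEM35, also called NACHO, had 337 and 318 against 117 and 170, at -1.41 ± 0.18 (SE; edgeR adjusted p = 0.0774). CNIH3, an auxiliary subunit of AMPA receptors, had 3056 and 3134 counts against 2103 and 2332 (log2 fold change -0.69 ± 0.075, SE; edgeR adjusted p = 0.0689).

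Of 21 genes of transmitter synthesis and clearance tested, 4 were higher and 4 lower (median 0.31). The glycine transporter SLC6A9 had 476 and 425 control counts against 1061 and 1203 in OE, at 1.12 ± 0.112 (SE; edgeR adjusted p = 0.0636), and DDC, which makes dopamine and serotonin, had 294 and 268 against 599 and 619. Of 22 genes that desensitise G protein-coupled receptors, 4 were higher and 4 lower (median -0.13), among them RGS2, which limits Gq signalling, at -0.63 ± 0.0535 (SE; edgeR adjusted p = 0.0572), ADRBK2 at 0.65 and RGS3 at -0.44. Of 14 receptors for other transmitters tested, 3 were higher and 1 lower (median 0.19). The histamine receptor HRH3 had 41 and 41 against 137 and 142 counts, the ATP-gated channel P2RX7 had 73 and 88 against 163 and 229, and the adenosine receptor ADORA2A was at -0.34.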

How the data were processed

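The authors deposited a table of read counts per transcript for the 4 libraries, whole numbers with no normalization. Per the labels and methods, TruSeq libraries were aligned to hg19, and the submitters' processing notes name Bowtie2 2.0.4, Picard 2.21.6, StringTie 2.1.6 and DESeq2. The counting tool, its annotation and its use of strand are not given in the sources used here. Reads shared by near-identical or overlapping genes may therefore be misplaced, and 12 of the 39 named receptor genes overlap exons of another gene.

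Transcript counts were added up by gene. edgeR 4.0.16 (R 4.3.3) was used with filterByExpr, TMM factors of 0.976 to 1.02 and the quasi-likelihood test, on 20528 genes with Benjamini-Hochberg adjustment, with the dispersion resting on 2 residual degrees of freedom. The fit was tested on simulated data. Alternatives were DESeq2 1.42.0, limma-voom (limma 3.58.1), RLE and upper-quartile scaling, 2 other filters, a replicate block, each library left out, the most abundant transcript per gene, and leaving out mitochondrial genes. Positions come from GENCODE 44 lifted to GRCh37, which held 95 of the 97 receptor genes.

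Named genes were every receptor gene averaging 1 CPM or more, or with an unadjusted edgeR p under 0.05 or a DESeq2 call, and for each list of partner genes the 3 with the smallest edgeR p among genes averaging 1 CPM or more. Receptor genes at 0 and partial copies were named in addition, after their values were seen. The symbol rule uses no expression value, but the receptor genes and lists were chosen with earlier results of these data known. Some genes are counted in the totals but not reported here by name.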

Additional observations from a re-analysis of the deposited data

How the results depend on the processing

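The count of receptor genes past the thresholds of the study depended on the tool. It was 0 in edgeR's quasi-likelihood test under every scaling, filter and library left out, 0 in limma-voom, and 13 in DESeq2. With 1 library left out in turn, the receptor genes lower at an unadjusted p under 0.05 numbered 1 to 3 (1 without vector control replicate 2), those lower without overlap 12 to 14, the median log2 fold change 0.20 to 0.37, and the genes of the 5 partner lists higher at that p 12 to 20 (12 without RP5-998N21.4 OE replicate 1). A lone library in a group was assumed to vary like the other group. Absence of overlap is easier to reach for any gene when a group holds 1 library instead of 2. No share of all tested genes is given for that setting, so the 12 to 14 cannot be read as a shift in the receptor genes. Of 507 log2 fold changes recomputed for the 39 named receptor genes, 484 kept their direction and side of the threshold, 12 passed it in DESeq2, and 11, in 6 genes, turned direction. None of the 16 named genes with an unadjusted p under 0.05 was among these 6. Leaving out a library gave -0.20 to 0.38 for CHRNA7, -4.36 to 0.22 for CHRNB1, -0.48 to 0.17 for GRIN2C, -0.44 to 0.13 for GRM2, -0.43 to 0.20 for HTR1D and -0.27 to 0.16 for HTR6, and upper-quartile scaling gave 0.00 for HTR6. Over the alternatives, the adjusted p of CHRM3 ranged from 5.85e-11 (DESeq2) to 0.296. Equal replicate numbers did not pair the samples (correlation of deviations -0.0133), and with a replicate block 14 receptor genes were higher and 3 lower at an unadjusted p under 0.05, as without it. The causes of these shifts were not tested. The filter on low counts asked for about 0.411 CPM in 2 libraries, and with a minimum of 1 count in total all 69 receptor genes with a count could be tested.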
